A study of Mus musculus with 8 samples.

Results

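Macrophages and related myeloid cells were followed here through 36 marker genes, measured in muscle of unloaded and weight bearing mice. The 36 genes were picked by name as markers of this lineage, and each was matched by its current or older symbol to 1 of the 21212 probe sets on the arrays. They comprised 6 markers of resident tissue macrophages, 24 general macrophage and myeloid markers, 5 inflammatory and recruitment genes (chemokines and chemokine receptors) and the growth factor gene Csf1. The values came from 8 arrays of RNA from the gastrocnemius and plantaris, the large muscles of the calf. All mice were female wild type C57BL/6J, 7 weeks old and housed individually. In the unloaded group (4 mice, 1 array each) the hind limbs were raised from the cage floor for 5 days, so that the calf muscles bore no weight. The weight bearing group (4 mice, 1 array each) moved freely. Values are log2 expression per probe set, and 1 unit is a doubling. A gene is called lower or higher in unloaded muscle at a limma adjusted p under 0.05, with Benjamini-Hochberg adjustment over all probe sets.

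Skeletal muscle holds macrophages in the connective tissue between its fibres and around its vessels. Resident macrophages live in the tissue for long periods, take up debris and glycoproteins through scavenger receptors, and in mice are recognised by surface proteins such as the mannose receptor and the folate receptor beta. After injury, monocytes are drawn from the blood by chemokines and become inflammatory macrophages. Both kinds depend on the growth factor CSF1 and its receptor and on the transcription factor PU.1. Whole muscle RNA holds all of these cells together with the fibres, so that fewer cells of a type and less of an RNA per cell cannot be told apart in the values below.

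Before the comparison the arrays themselves were examined. Array medians ran from 6.28 to 6.33, correlations between arrays of a group over all probe sets from 0.9962 to 0.9973, and those between groups from 0.9917 to 0.9936. The means over 11 fibre markers ran from 12.643 to 12.686 in weight bearing and from 12.482 to 12.530 in unloaded arrays, without overlap, and 4 of these markers were lower (Myh2 -0.79, Mylpf -0.33, Casq1 -0.32 and Acta1 -0.15). Weight bearing replicate 2 stood apart in genes of neutrophils and red cell precursors. Ngp, a granule protein of developing neutrophils, stood at 7.08 there against 3.36 to 3.63 in the other 7 arrays, and the mean of 9 neutrophil markers was 5.65 there against 4.43 to 4.77 in the others. Slc4a1, the anion exchanger of red cells, was at 7.14 there and at 5.88 to 6.39 elsewhere. The counts of called members are therefore also given without that array.

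Most of the macrophage markers were lower in unloaded muscle. Of the 36 genes 20 were lower and 0 higher by limma (23 and 1 at an unadjusted p under 0.05), and the median log2 change (unloaded minus weight bearing) was -0.30. Among all probe sets 11.0% were lower and 12.8% higher, with a median change of 0.04. The change was below 0 in 33 of the 36 genes. In 18 of them every unloaded array lay below every weight bearing array and in 0 the reverse held, whereas over all probe sets 12.0% and 15.5% showed this separation downward and upward. Without weight bearing replicate 2 the count of lower members was 16. The calls lost without it were those of Clec10a, Fcer1g, Tyrobp and Lyz2. Each of these calls was also lost when certain other arrays were left out, and without weight bearing replicate 1 the count was 16 as well. The methods name another test with a q-value limit, and which q-value was used is not stated. That test called 19 of the 20 with Storey q-values, all but Fcer1g. With Benjamini-Hochberg values it called 11, and Laptm5, Clec10a, C1qa, Tyrobp, Fcer1g, Fcgr3, Lyz2, Cybb and Csf1 were not called.

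The changes were then described for each group of markers. Of the resident markers 5 of 6 were lower, with a median of -0.41. Of the general markers 14 of 24 were lower, with a median of -0.33. Of the inflammatory and recruitment genes 0 of 5 were lower and 0 higher by limma, with a median of 0.00, and 1, Ccl7, was higher at an unadjusted p under 0.05. By the test of the methods Ccl7 was higher with Storey q-values and was not called with Benjamini-Hochberg values. The array means over the 6 resident markers ran from 7.69 to 7.88 in weight bearing and from 7.15 to 7.32 in unloaded muscle, without overlap. Those over the 24 general markers ran from 6.74 to 7.00 and from 6.47 to 6.71. Those over the 5 inflammatory genes overlapped, with 5.46 to 5.78 and 5.46 to 5.66. These lists were not tested against each other, and probe sets differ in brightness: 22 members lay in the brighter 50% of all probe sets and 14 in the dimmer 50%. In the brighter 50% 18 of 22 members were lower (18.4% of all probe sets there), in the dimmer 50% 2 of 14 (3.49% of all probe sets there). All 6 resident markers and 0 of the 5 inflammatory genes were in the brighter 50%.

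**Figure D1:**
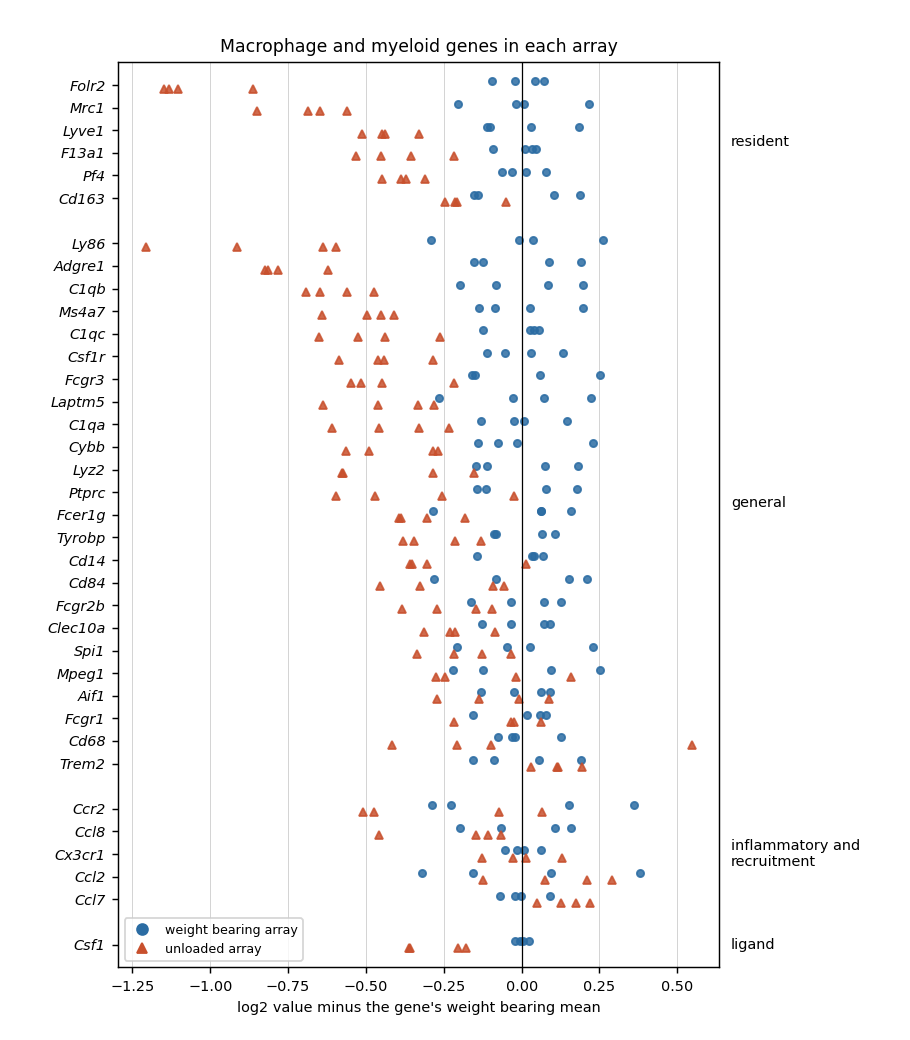
Deposited log2 values of the 36 macrophage and myeloid genes in each of the 8 arrays, shown relative to the weight bearing mean of the gene (vertical line), with circles for weight bearing and triangles for unloaded arrays and genes in rows by group of markers. The 4 unloaded arrays lie to the left of the 4 weight bearing arrays for 18 genes, while Ccl2, Ccl7 and Trem2 show changes of 0.11, 0.14 and 0.11 upward that did not pass the test.

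Folr2, the gene of folate receptor beta, showed the strongest change of all 36 genes. Its log2 value was 7.94, 7.91, 7.77 and 7.85 in the weight bearing arrays and 6.72, 7.00, 6.74 and 6.76 in the unloaded arrays. The groups lay far apart, and the highest unloaded array was replicate 2. The change was -1.06 ± 0.07 (SE, n = 4 per group), 2.09-fold lower (limma adjusted p = 1.3e-05).

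Mrc1 encodes the mannose receptor, which clears glycoproteins and collagen fragments. It stood at 8.12, 8.36, 7.93 and 8.14 in weight bearing and at 7.45, 7.49, 7.29 and 7.58 in unloaded muscle. All 4 unloaded arrays were below all weight bearing arrays, with a change of -0.69 ± 0.09 (SE), 1.61-fold lower (limma adjusted p = 5.7e-04).

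Lyve1 encodes a hyaluronan receptor of vessel-associated macrophages and of lymphatic endothelium. Its weight bearing values of 8.26, 8.54, 8.39 and 8.25 were all above its unloaded values of 8.03, 7.91, 7.84 and 7.92, a change of -0.43 ± 0.07 (SE, limma adjusted p = 0.0023). As lymphatic vessels carry this gene too, 4 other lymphatic markers were examined. Of these Pdpn, podoplanin, which stromal cells also make, was lower (change -0.26). Prox1, the factor that defines lymphatic endothelium, had a change of 0.19, Flt4 of 0.03 and Mmrn1 of 0.11, none of which passed the test. Prox1, Flt4 and Mmrn1 were among the dimmer probe sets, of which 3.49% were lower, and Pdpn was among the brighter. The part of lymphatic vessels in the Lyve1 values was not tested.

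F13a1 and Pf4 are shared by macrophages and platelets. F13a1, the A subunit of the clotting transglutaminase factor XIII, was at 7.93, 7.91, 7.95 and 7.81 in weight bearing and at 7.54, 7.68, 7.45 and 7.37 in unloaded muscle (change -0.39 ± 0.07 SE, limma adjusted p = 0.0033). Pf4, the chemokine platelet factor 4, was at 7.74, 7.88, 7.82 and 7.77 and then at 7.50, 7.42, 7.36 and 7.43 (change -0.38 ± 0.05 SE, limma adjusted p = 7.1e-04). Neither gene's groups overlapped. The changes of 6 other platelet markers were all above 0, from 0.07 for Gp1ba to 0.53 for Ppbp, and 0 of them passed the test (2 at an unadjusted p under 0.05, 0 by the test of the methods with either q-value).

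Cd163, the haemoglobin scavenger receptor, was the 1 resident marker that was not called. It had values of 6.58, 6.66, 6.32 and 6.33 in weight bearing and 6.26, 6.42, 6.22 and 6.26 in unloaded muscle, so that the groups overlapped. The change of -0.18 had a 95% interval of -0.37 to 0.01 (limma adjusted p = 0.149).

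The promoters of the members were then searched for the binding motif of PU.1, the ETS family factor encoded by Spi1 that is needed for macrophage development. RefSeq promoters (build GRCm38.p6, from 250 bases before to 50 after each start) were at hand for 26 of the 36 genes, in 31 windows. The motif GAGGAAG was present on either strand in 11 of 31 windows (35.5%), against 13.6% of 32851 promoters of all genes, and the 9 genes concerned were C1qc, Ccl8, F13a1, Fcgr1, Fcgr3, Laptm5, Mrc1, Pf4 and Trem2. The pair of windows of Fcgr3 overlap. Of the 14 lowered genes with a promoter 6 held the motif, and 3 genes that held it, Ccl8, Fcgr1 and Trem2, were not called. The 120 bases before the start are shown for 5 lowered genes that hold the motif there and for Trem2 and Fcgr1, which hold it but were not called, so that both can be set side by side. They are written 5′ to 3′ along the gene, with the motif or its complement CTTCCTC in capitals. Their positions are chr2:14229294-14229413 (plus strand) for Mrc1, chr13:37050245-37050364 (minus) for F13a1, chr5:90772315-90772434 (plus) for Pf4, chr4:130913196-130913315 (plus) for Laptm5, chr1:171059404-171059523 (minus) for Fcgr3, chr17:48346281-48346400 (plus) for Trem2 and chr3:96293970-96294089 (minus) for Fcgr1.
Mrc1: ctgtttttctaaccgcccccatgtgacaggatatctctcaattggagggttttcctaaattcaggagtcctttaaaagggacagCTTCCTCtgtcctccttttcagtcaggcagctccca
F13a1: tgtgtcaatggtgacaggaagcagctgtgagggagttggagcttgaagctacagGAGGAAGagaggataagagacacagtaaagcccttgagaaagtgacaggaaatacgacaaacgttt
Pf4: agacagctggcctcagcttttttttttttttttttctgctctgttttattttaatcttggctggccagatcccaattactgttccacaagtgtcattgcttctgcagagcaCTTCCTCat
Laptm5: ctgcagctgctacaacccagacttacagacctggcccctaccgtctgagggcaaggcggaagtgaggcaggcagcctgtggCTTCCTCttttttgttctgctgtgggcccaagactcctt
Fcgr3: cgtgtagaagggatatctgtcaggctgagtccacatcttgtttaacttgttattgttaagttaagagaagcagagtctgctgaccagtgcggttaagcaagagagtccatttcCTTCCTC
Trem2: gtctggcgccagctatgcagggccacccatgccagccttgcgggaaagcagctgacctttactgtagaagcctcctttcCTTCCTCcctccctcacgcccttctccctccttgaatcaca
Fcgr1: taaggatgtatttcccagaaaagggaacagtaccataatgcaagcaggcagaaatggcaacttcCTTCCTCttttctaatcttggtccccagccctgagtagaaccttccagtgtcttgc
Of these 7 promoters 6 carry the motif as CTTCCTC, and F13a1 carries it as GAGGAAG. In Fcgr3 it ends at the last base before the annotated start, and in Pf4 it ends within a few bases of the start. Other motifs were counted over the same 300 bases. The C/EBP motif (TTGCNNAA or TTNCGCAA) was in 16.1% of the members' windows and 10.8% of all promoters, AP-1 (TGANTCA) in 19.4% and 7.81%, the TATA box (TATAAA) in 9.68% and 13.6%, the E-box CACGTG in 0 of 31 and 7.15%, and the NF-kB consensus in 12.9% (C1qc, Csf1 and Fcgr3) and 4.51%. Such matches describe the letters in these windows and are not measured binding sites.

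Among the general markers the surface and identity genes came first, and 5 of 10 were lower. Adgre1, the adhesion receptor long used to mark mouse macrophages, was at 7.02, 6.92, 6.67 and 6.71 in weight bearing and at 6.04, 6.21, 6.01 and 6.00 in unloaded muscle. No unloaded array reached the lowest weight bearing array, and the change was -0.76 ± 0.08 (SE), 1.69-fold lower (limma adjusted p = 2.1e-04). Ms4a7, a membrane protein of macrophages, was at 5.50, 5.67, 5.39 and 5.33 and then at 4.83, 5.06, 4.97 and 5.02 (change -0.50, limma adjusted p = 0.0017), again without overlap. Laptm5, a lysosomal membrane protein of blood cells, had 8.24, 8.39, 7.90 and 8.14 in weight bearing and 7.84, 7.89, 7.53 and 7.71 in unloaded muscle (change -0.43, limma adjusted p = 0.0167). Its groups did not overlap but lay close, with 7.89 in unloaded replicate 2 and 7.90 in weight bearing replicate 3. Clec10a, a lectin that binds galactose sugars, had a change of -0.21 with overlapping groups (limma adjusted p = 0.0429), and its call was lost (0.0635 to 0.110) when any array other than unloaded replicate 2 or weight bearing replicate 3 was left out.

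CSF1 and its receptor form the growth factor pair of the lineage, and the genes of both were lower. Csf1r was at 7.91, 8.01, 7.77 and 7.82 in weight bearing and at 7.29, 7.59, 7.44 and 7.41 in unloaded muscle (change -0.44 ± 0.07 SE, limma adjusted p = 0.0023). Csf1 was at 7.60, 7.61, 7.59 and 7.63 and then at 7.40, 7.43, 7.24 and 7.25 (change -0.28 ± 0.06 SE, limma adjusted p = 0.0058). The weight bearing arrays agreed closely for Csf1, with an SD of 0.02 against 0.10 in the unloaded arrays, and in neither gene did the groups overlap. Il34, the other ligand of the receptor, had a change of 0.02 (limma adjusted p = 0.783), and 0 of 6 genes of other CSF receptors and ligands were lower or higher by limma (1 lower at an unadjusted p under 0.05, 0 by the test of the methods with either q-value).

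The other 5 surface and identity genes did not pass the test. Ptprc, the pan-leukocyte phosphatase, had a change of -0.34 (95% interval -0.60 to -0.07, limma adjusted p = 0.0663), Cd84 of -0.23, Spi1 of -0.18 and Aif1, a calcium-binding protein of macrophages, of -0.08. Cd68, a lysosomal membrane glycoprotein, was at 7.54, 7.69, 7.49 and 7.53 in weight bearing and at 7.15, 8.11, 7.47 and 7.36 in unloaded muscle. Its unloaded replicate 2 was above every weight bearing array and the other 3 unloaded arrays were below them all. With all arrays the change was -0.04 (95% interval -0.42 to 0.33, limma adjusted p = 0.867), and without unloaded replicate 2 it was -0.24 (limma adjusted p = 0.0772).

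The chains of C1q, the recognition molecule of the classical complement pathway, are made in tissues largely by macrophages, and all 3 genes were lower. C1qb was at 8.56, 8.67, 8.39 and 8.28 in weight bearing and at 7.92, 8.00, 7.83 and 7.78 in unloaded muscle (change -0.59 ± 0.09 SE, limma adjusted p = 0.0010). C1qc was at 7.84, 7.87, 7.69 and 7.86 and then at 7.38, 7.55, 7.16 and 7.29 (change -0.47, limma adjusted p = 0.0027). C1qa was at 7.26, 7.43, 7.16 and 7.29 and then at 6.96, 7.05, 6.68 and 6.83 (change -0.41, limma adjusted p = 0.0075). In each chain the groups were apart, and in each the highest array of a group was replicate 2.

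Of 6 genes of Fc receptors, signalling adaptors and a lipid receptor, 3 were lower. Fcgr3, a low-affinity activating receptor for immunoglobulin G, was at 7.06, 6.87, 6.65 and 6.66 in weight bearing and at 6.29, 6.59, 6.36 and 6.26 in unloaded muscle (change -0.43, limma adjusted p = 0.0130). The signalling adaptor genes Tyrobp and Fcer1g had changes of -0.27 (adjusted p = 0.0222) and -0.32 (adjusted p = 0.0327) by limma. Both calls were lost when weight bearing replicate 1 or 2 or unloaded replicate 1 or 3 was left out, with adjusted p from 0.0504 to 0.0819 over those fits, and that of Fcer1g also without weight bearing replicate 4 (0.0720) or unloaded replicate 4 (0.0640).

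The other Fc receptors were not called. Fcgr2b, the inhibitory receptor, had a change of -0.22 (95% interval -0.40 to -0.05, limma adjusted p = 0.0691), and Fcgr1, the high-affinity receptor, one of -0.05 (95% interval -0.22 to 0.11). Trem2, a lipid receptor that signals through Tyrobp, was at 6.12, 6.33, 6.18 and 6.46 in weight bearing and at 6.30, 6.39, 6.39 and 6.47 in unloaded muscle. The groups overlapped and the change was 0.11 (95% interval -0.06 to 0.28, limma adjusted p = 0.297). The related receptor gene Fcgr4 had a change of -0.05 (limma adjusted p = 0.649), and neither the labels nor the methods state how probes in near-identical sequence of the Fc receptors were assigned.

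The antimicrobial and sensing genes gave 3 of 5 lower. Ly86, which pairs with a Toll-like receptor homolog on the cell surface, showed the second strongest change of the members. It was at 7.97, 7.75, 7.42 and 7.70 in weight bearing and at 7.07, 7.12, 6.50 and 6.80 in unloaded muscle, a change of -0.84 ± 0.14 (SE), 1.79-fold lower (limma adjusted p = 0.0027). Despite a wide spread within both groups, with SDs of 0.23 and 0.28, no unloaded array reached the weight bearing range. Cybb, the catalytic subunit of the phagocyte NADPH oxidase, was at 7.48, 7.72, 7.35 and 7.42 and then at 7.22, 7.21, 7.00 and 6.93 (change -0.40, limma adjusted p = 0.0116).

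Lyz2, the lysozyme of macrophages and neutrophils, was at 10.14, 10.03, 9.81 and 9.84 in weight bearing and at 9.67, 9.80, 9.38 and 9.38 in unloaded muscle (change -0.40, limma adjusted p = 0.0246). The highest unloaded array, at 9.80, nearly reached the lowest weight bearing array, at 9.81. Without weight bearing replicate 2, the array with high neutrophil genes, the change was -0.37 (limma adjusted p = 0.0596), and the call was also lost without weight bearing replicate 1 (0.0647), unloaded replicate 3 (0.0672) or unloaded replicate 4 (0.0660). Lyz1, its close paralog, had a change of -0.07 (limma adjusted p = 0.819), and how far their probe sets can be told apart is not stated in the labels or methods. Cd14, the lipopolysaccharide co-receptor, was at 5.44, 5.44, 5.26 and 5.47 and then at 5.05, 5.10, 5.42 and 5.04. Its unloaded replicate 3 lay inside the weight bearing range (change -0.25, limma adjusted p = 0.0631), and without that array the change was -0.34 (limma adjusted p = 0.0070). Mpeg1, a pore-forming protein of phagocytes, had a change of -0.10 (95% interval -0.36 to 0.17).

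**Figure D2:**
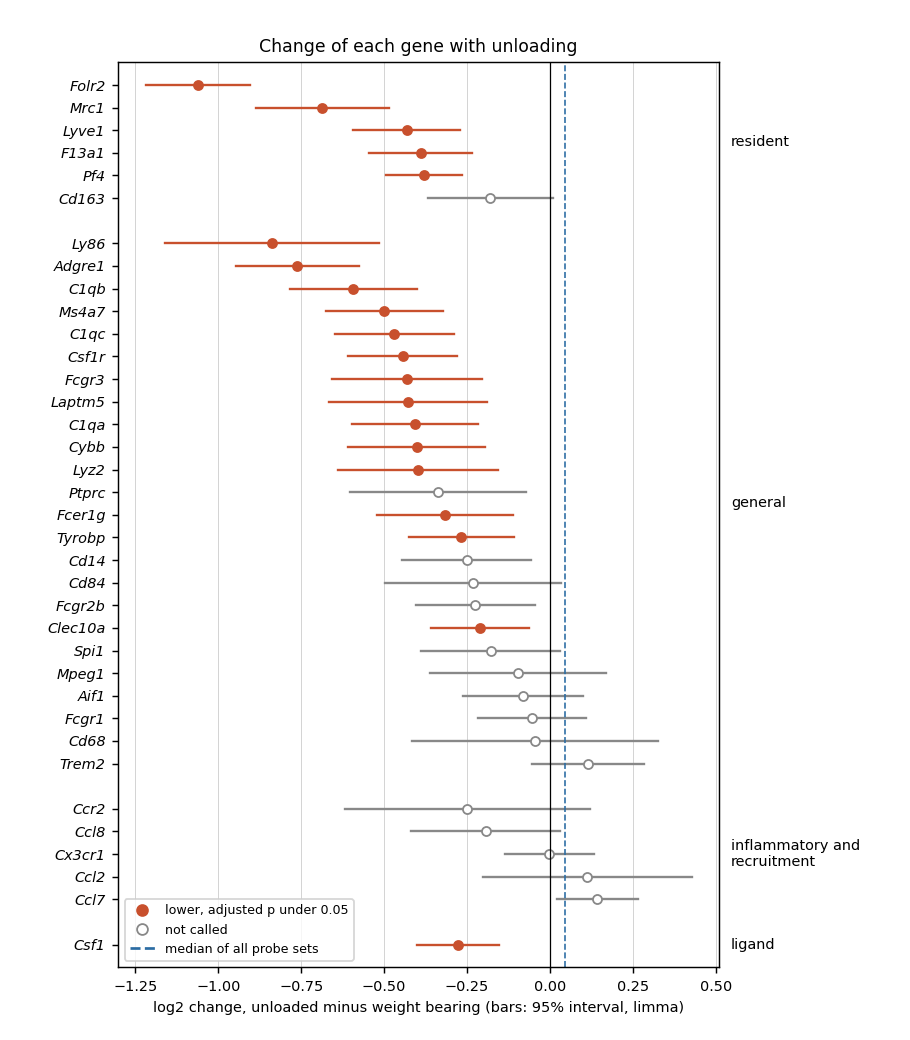
Difference of the group means on the log2 scale (unloaded minus weight bearing) for the 36 genes, each with its 95% interval from limma, ordered within groups of markers, with filled points for adjusted p under 0.05. Intervals of Folr2 (-1.06), Ly86 (-0.84), Adgre1 (-0.76) and Mrc1 (-0.69) lie farthest below 0, and those of Ccl2 (0.11), Ccr2 (-0.25) and Cx3cr1 (0.00) span 0.

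The inflammatory and recruitment genes comprised chemokine ligands that attract monocytes and the receptors that answer them. Ccl2, the main monocyte attractant, was at 6.48, 5.78, 5.94 and 6.19 in weight bearing and at 5.97, 6.31, 6.17 and 6.39 in unloaded muscle. The weight bearing arrays spread over the whole unloaded range, and the change was 0.11 (95% interval -0.20 to 0.43, limma adjusted p = 0.589). Ccl7, a related attractant, was at 5.65, 5.49, 5.54 and 5.56 and then at 5.61, 5.74, 5.78 and 5.69 (change 0.14, 95% interval 0.02 to 0.27, limma adjusted p = 0.0869). Only its unloaded replicate 1 lay within the weight bearing range. Ccl8 had a change of -0.19 (95% interval -0.42 to 0.03).

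Ccr2, the receptor for CCL2 on inflammatory monocytes, was at 5.98, 5.78, 5.40 and 5.34 in weight bearing and at 5.69, 5.55, 5.15 and 5.11 in unloaded muscle. Arrays of each group spread by more than the groups differed, and the change of -0.25 had an interval of -0.62 to 0.12 (limma adjusted p = 0.299). With a block for the replicate number, which was not taken to pair the arrays, limma called Ccr2 lower (adjusted p = 0.0126). Cx3cr1, the fractalkine receptor of patrolling monocytes and some resident macrophages, was at 5.98, 6.03, 5.92 and 5.96 and then at 5.94, 6.10, 5.99 and 5.84. The groups overlapped throughout, and the 95% interval was -0.14 to 0.13.

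The lowered members also varied together between arrays of a group. Of the 20 lowered genes 20 were above their group mean in weight bearing replicate 2 and 14 in weight bearing replicate 1, against 3 in replicate 3 and 5 in replicate 4. Among unloaded arrays 18 were above the mean in replicate 2 and 11 in replicate 1, against 2 in replicate 3 and 5 in replicate 4. The mean deviation over the 20 genes ran from -0.12 to 0.12 in weight bearing and from -0.11 to 0.14 in unloaded arrays. This is a description over genes measured on the same arrays, and the genes are not independent of each other. The pattern was not particular to them. Endothelial marker means were 8.68, 8.73, 8.50 and 8.56 in weight bearing replicates 1 to 4, and 8.56, 8.53, 8.48 and 8.50 in unloaded ones. Other lists had another order in weight bearing arrays, such as fibre markers (12.648, 12.661, 12.686 and 12.643) and T and NK cell markers (4.448, 4.481, 4.423 and 4.508).

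**Figure D3:**
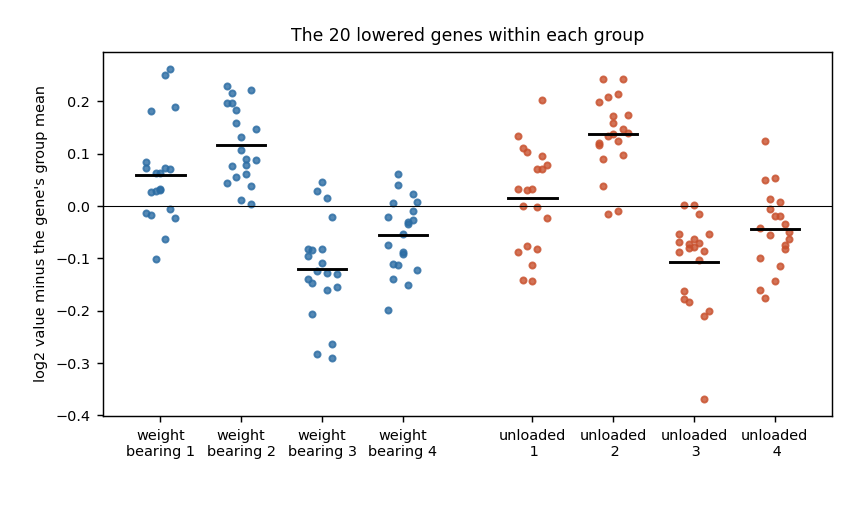
Deviation of each lowered member (20 genes) from its group mean on the log2 scale, for each of the 8 arrays, with the mean over the genes marked. Weight bearing replicate 2 and unloaded replicate 2 lie highest (means 0.12 and 0.14), and replicate 3 of each group lies lowest (-0.12 and -0.11).

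Related gene lists were set beside the members. Of 16 further genes of resident macrophages 9 were lower and 0 higher by limma (by the test of the methods 9 were lower with Storey and 7 with Benjamini-Hochberg values). Cd209f, a lectin, was at 7.13, 7.12, 6.99 and 7.42 in weight bearing and at 5.71, 6.05, 6.17 and 5.80 in unloaded muscle (change -1.24, limma adjusted p = 7.2e-05), and Cbr2, a carbonyl reductase, was at 8.42, 8.62, 8.59 and 8.61 and then at 7.65, 7.89, 7.75 and 7.67 (change -0.82). Cd209d (-0.65) and Mgl2 (-0.51), both lectin genes, were lower as well. Mgl2 is the paralog of Clec10a. Of 7 genes of antigen presentation on MHC class II 5 were lower, led by Cd74, the invariant chain (-0.73), and H2-Ab1 (-0.55), and by the test of the methods 2 were with Storey and 0 with Benjamini-Hochberg values. Of 24 genes of leukocyte signalling and the NADPH oxidase 10 were lower, among them Cyba, the partner of Cybb (-0.41), and the same 2 forms of the test called 7 and 2. Of 4 leukocyte integrins 0 were lower or higher by limma (1 lower at an unadjusted p under 0.05, 0 by the test of the methods with either q-value).

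The lysosomal and lipid genes of macrophages moved in both directions. Of 13 genes 5 were lower, with Pla2g7 (-0.66) and Grn (-0.43) among them, and 3 were higher. Abca1, the cholesterol exporter, was at 7.97, 8.04, 7.93 and 8.18 in weight bearing and at 9.16, 9.04, 9.17 and 9.02 in unloaded muscle (change 1.07, limma adjusted p = 8.8e-06). Gpnmb, a glycoprotein of lipid-loaded macrophages, was at 6.99, 7.00, 6.94 and 7.26 and then at 7.90, 7.91, 7.77 and 7.94 (change 0.83, limma adjusted p = 6.1e-05). The third was Lgals3, galectin-3 (change 0.39, limma adjusted p = 0.0120). Abca1 and Lgals3 are made by many cell types, and which cells gave the higher values of Gpnmb was not tested.

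Inflammatory cytokines and other chemokines stood beside the 5 recruitment genes. Of 14 cytokine genes 2 (14.3%), Il1b and Il1a, were higher, against 12.8% of all probe sets. Il1b was at 4.33, 4.63, 4.45 and 4.53 in weight bearing and at 5.02, 4.88, 4.66 and 4.97 in unloaded muscle (change 0.40, limma adjusted p = 0.0094). Il1a had a change of 0.32. Both were dim, at brightness percentiles of 23.8 for Il1b and 8.3 for Il1a. Of the dimmer probe sets 9.11% were higher and 3.49% lower. Il18 was lower (-0.38). Of 10 other chemokines 4 were lower, with Cxcl12 (-0.37) first and Cxcl16 (-0.31) second, and of 10 Toll-like receptors and adaptors 3, with Ly96 (-0.60) and Tlr8 (-0.49) leading. Of 9 genes of alternative activation Retnla (-1.34) and Tgfb1 (-0.29) were lower (22.2%) and Socs3 (0.37) was higher (11.1%).

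**Figure D4:**
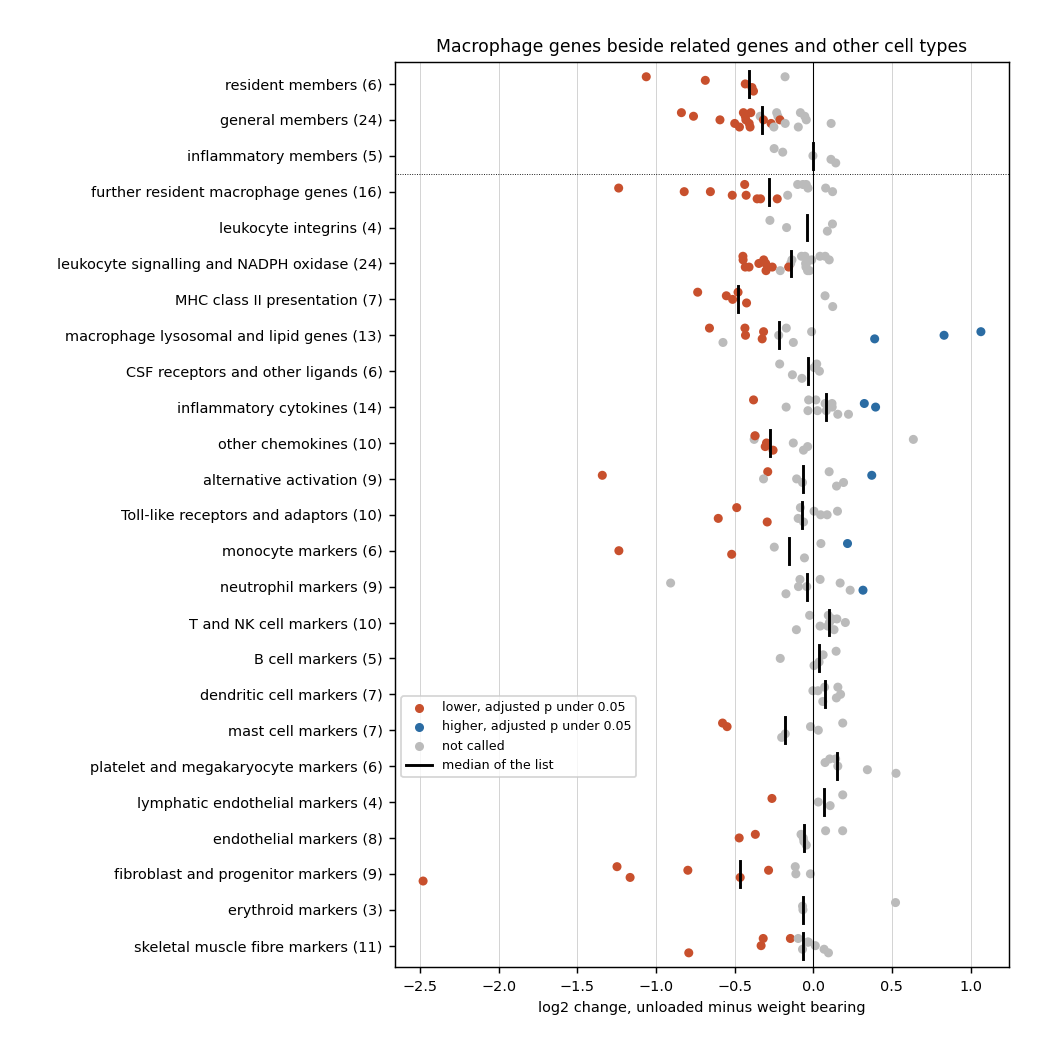
Difference of the group means on the log2 scale (unloaded minus weight bearing), 1 point per gene, with the number of genes in brackets and the list median as a bar. Shown are the resident, general and inflammatory members and every measured gene of 22 other lists. The member Csf1 is not shown. The resident and general members have medians of -0.41 and -0.33, the fibroblast and progenitor markers of -0.46 and the MHC class II genes of -0.48. The lists of T and NK cells, B cells and dendritic cells have medians of 0.10, 0.04 and 0.07 with 0 genes called. All genes of the T and NK, B and dendritic cell lists are among the dimmer probe sets, where the median is 0.07 and 3.49% are lower.

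Markers of other cells were examined for the same arrays. Of 10 T and NK cell, 5 B cell, 7 dendritic cell and 6 platelet markers 0 were lower or higher by limma or by the test of the methods with either q-value. At an unadjusted p under 0.05 the counts were 2, 0, 2 and 2, all on the higher side. All T and NK cell, B cell and dendritic cell markers were among the dimmer probe sets, of which 3.49% were lower and 9.11% higher. Over all probe sets 11.0% were lower and 12.8% higher, and the counts below are to be read beside these shares. Of 9 neutrophil markers 1 (11.1%), Csf3r (0.32), was higher. Of 6 monocyte markers Vcan (-1.24) and Nr4a1 (-0.52) were lower and Treml4 (0.22) was higher, of which Vcan is also a matrix gene of stromal cells and Nr4a1 an early response gene of muscle. Of 7 mast cell markers Cpa3 (-0.58) and Mcpt4 (-0.55) were lower (28.6%). Of 8 endothelial markers Kdr (-0.47) and Emcn (-0.37) were lower. Of 9 fibroblast and progenitor markers 6 were lower, led by Col1a1 (-2.48), and their array means ran from 10.3 to 10.4 in weight bearing and from 9.51 to 9.64 in unloaded muscle. The part of these cells in the values of the macrophage genes was not tested. Of the genes named here that are not members, Cd74, H2-Ab1, Cyba, Pla2g7, Lgals3, Il1b, Tgfb1, Socs3, Tlr8, Treml4, Csf3r and Pdpn were not called by the test of the methods with Benjamini-Hochberg values. With Storey q-values H2-Ab1, Socs3 and Pdpn were not called.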

How the data were processed

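RNA of 8 muscle samples, 4 unloaded and 4 weight bearing, was each hybridised by the authors to an Affymetrix Mouse Gene 1.0 ST array. The authors ran robust multi-array analysis (RMA) on a custom definition of probe sets, which corrects the background, equalises the arrays and summarises probes, and deposited log2 expression values for 21212 probe sets. RMA is named in the submitters' processing notes. Neither the release of that definition nor a genome build is named in the labels or methods. The deposited values carry no detection calls, so dim probe sets were not removed, and precision is limited by having 4 arrays a group.

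Probe sets were named from the platform annotation (18786), or, where it had no entry, from the row's gene number in a RefSeq gene table (1917, among them Cd68), and 509 stayed unnamed and 6 with several symbols were not used. Of 240 listed genes 235 were measured, each by 1 probe set. Groups came from the sample labels, which call the samples biological replicates and give a mouse as the source of each, without an animal number. Unloaded was set against weight bearing muscle in R 4.3.3 by limma 3.58.1 (functions lmFit and eBayes, two-sided p), with Benjamini-Hochberg adjustment over all probe sets, and the fit was tested on simulated data. Lists were described by counts and medians only. All 36 members were named, and of every other list up to 4 called genes with the largest change, and markers named beyond this were chosen after their values were seen. The members and lists were chosen with earlier results of these data known. Motifs were searched with Python 3.11.15 in RefSeq promoters (GRCm38.p6). Protein comparisons that had been planned were not made. Alternatives were the methods' t-test with Benjamini-Hochberg or Storey q-values, equal variances, an intensity trend with robust variance, array weights, quantile normalization, array medians set to 0, no dim probe sets, a block for the replicate number, leaving out 1 array at a time and a minimum change of 1.2-fold.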

Additional observations from a re-analysis of the deposited data

Results flagged for a closer look

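Each group of 4 arrays of each of the 36 genes was examined for an array far from the other 3 (a gap past Dixon's 95% critical value), 72 groups in all, of which 4 stood out. Chance gives about 1 in 20 groups. Folr2 in unloaded replicate 2 was 7.003, the highest of its group, and without that array the change of Folr2 was -1.13 in place of -1.06. C1qc in weight bearing replicate 3 was 7.691, the lowest of its group. Cd14 stood out in both groups, with 5.26 in weight bearing replicate 3, the lowest, and 5.418 in unloaded replicate 3, the highest. Without the former the limma adjusted p of Cd14 was 0.0468, and without the latter 0.0070, against 0.0631 with all arrays.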

How the results depend on the processing

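The 5 lowered resident markers were called under every alternative, as were 6 of the 14 lowered general markers (Adgre1, Csf1r, Ms4a7, C1qb, C1qc and Ly86), and no member changed its direction past the threshold. By the methods' t-test with Benjamini-Hochberg q-values 11 members and 6 general markers were lower (1374 probe sets lower and 1393 higher), and with equal variances 13 and 7. With Storey q-values the methods' t-test called 19 members and 13 general markers lower (2403 probe sets lower and 3033 higher) and 1 member higher, Ccl7 (adjusted p = 0.0489), the 1 inflammatory gene higher in any fit. A minimum change of 1.2-fold left 1244 probe sets higher. Without the dimmest 50% of probe sets the median over the 22 members left was -0.4045. With 1 array left out, 16 to 21 members, 10 to 15 general and 5 resident markers were lower, and 1802 (without unloaded replicate 3) to 2852 probe sets higher. Replicate numbers were not taken to pair the arrays (correlations of deviations 0.024, 0.037, 0.12 and 0.095 for equal numbers, not all over 0.1), though 3 of 4 arrays of each group correlated best with their own number, the exceptions being unloaded replicate 1 and weight bearing replicate 1. With the replicate block 24 members were lower, the added 4 being Ptprc (adjusted p = 0.0078), Cd84 (0.0426), Fcgr2b (0.0336) and 1 inflammatory gene, Ccr2 (0.0126). Several probe sets per gene did not occur, so their mean could not be tried. Changes of dim genes are bounded by the background of the arrays, and 4 arrays per group limit the precision.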
